A study of Homo sapiens with 3 samples.

Results

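The genes described here are the 10 G1 cyclins, cyclin-dependent kinases and Cip/Kip inhibitors CCND1, CCND2, CCND3, CCNE1, CCNE2, CDK2, CDK4, CDK6, CDKN1B and CDKN1C. The rule for choosing them names symbols and no threshold on a value, although earlier results of these data were known when it was set. Each symbol matched 1 row among the 25270 rows of the expression table. RNA-seq was performed on 3 libraries of HepG2, a human hepatocellular carcinoma cell line, with 1 library per condition. HepG2/wild was the untreated parental line. HepG2/metR was derived from it by exposure to metformin, which blocks complex I of the respiratory chain, for more than 5 months. HepG2/metR+oxamate was the same metformin-exposed line after 24 h in 40 mM oxamate, an inhibitor of lactate dehydrogenase. The study used the first contrast to look for genes that differ in a lactate-rich state, and the second for genes that respond when lactate production is blocked. The labels did not state whether metformin was in the medium at harvest.

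Progression through G1 depends on D-type cyclins, which bind CDK4 or CDK6, and on E-type cyclins, which bind CDK2. The active kinases phosphorylate the retinoblastoma protein and its relatives, which releases E2F transcription factors to switch on genes for DNA replication. Cip/Kip inhibitors such as p27, the product of CDKN1B, and p57, the product of CDKN1C, hold the cyclin-kinase complexes in check, while INK4 inhibitors act on CDK4 and CDK6 alone.

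Values are FPKM, that is, fragments per kilobase of transcript scaled to the mapped fragments of the library, back-transformed from a deposited log2(FPKM + 1) scale, and every difference below is on that log2 scale, on which changes of weakly expressed genes are understated. With 1 library per condition no difference has a replicate check, no test was possible and no p-value is given. A gene was counted as higher or lower past 2-fold between HepG2/metR and HepG2/wild, and past 1.5-fold between HepG2/metR+oxamate and HepG2/metR, the folds that the study's methods name. Both contrasts contain the HepG2/metR library, so they are not independent of each other. Counts refer to the 12210 genes with a mean of at least 1 FPKM over the libraries. Of the 10 members, 8 were among them, and CCND2 and CDKN1C were not.

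The summed FPKM was 562382 in HepG2/wild, 534646 in HepG2/metR and 473773 in HepG2/metR+oxamate, and between 11356 and 11649 genes reached 1 FPKM in a library. Depth in reads is unknown from these values. Of 10 hepatocyte markers, all 10 reached 1 FPKM in HepG2/wild, with a summed level of 31190 FPKM, whereas 2 did so in HepG2/metR and 2 with oxamate, where the sums were 13.9 and 11.1 FPKM. ALB, which encodes albumin, was at 9206 FPKM in HepG2/wild and at 0.747 FPKM in HepG2/metR, and APOA1, APOC3 and TTR were listed at 0 there. The sum of 8 fibroblast and mesenchymal markers ran from 6.53 FPKM in HepG2/wild to 1637 FPKM in HepG2/metR and 1204 FPKM with oxamate, with 3, 4 and 4 of them at 1 FPKM or more. In HepG2/metR nearly all of this sum was VIM, which encodes vimentin, at 1576 FPKM, followed by THY1 at 53.3 FPKM. With oxamate VIM was again nearly all of it, at 1139.8 FPKM. In HepG2/wild VIM was at 1.23 FPKM, and PDGFRB was the largest at 3.43 FPKM. PDGFRB and LUM were highest with oxamate, at 7.26 and 6.69 FPKM. The collagen genes COL1A1, COL1A2 and COL3A1 were below 1 FPKM in HepG2/metR and lower than in HepG2/wild. The 3 endothelial markers stayed below 1 FPKM in every library and summed to at most 0.248 FPKM. The 3 leukocyte markers summed to between 0.647 and 2.23 FPKM, with 1 of them at 1 FPKM or more in HepG2/wild and none in the other libraries. The HepG2/metR libraries thus held little RNA of the hepatocyte markers, with SERPINA1 and FGB the ones still at 1 FPKM or more, and the part of this in the differences of the G1 genes was not tested. In bulk RNA, fewer cells in a phase of the cell cycle and less RNA per cell cannot be told apart.

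Between HepG2/wild and HepG2/metR, CCND3, CCNE2 and CDK2 rose past 2-fold and CDKN1B fell past 2-fold. Thus 3 of the 8 members were higher, against 16.6% of all genes, and 1 of 8 was lower, against 17.6% of all genes. The median difference of the 8 members was 0.44, and that of all genes was 0.02. With oxamate, CCNE1, CCNE2 and CDK4 fell past 1.5-fold, which is 3 of 8 members against 3.82% of all genes, and 0 of 8 rose, against 4.3% of all genes. The median difference of the members was −0.42 in that contrast, beside 0.02 for all genes. CCNE2 was the single member past the fold in both contrasts, rising in the first and falling in the second. The falls with oxamate depended on how the libraries were put on one scale, as described with that contrast.

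**Figure D1:**
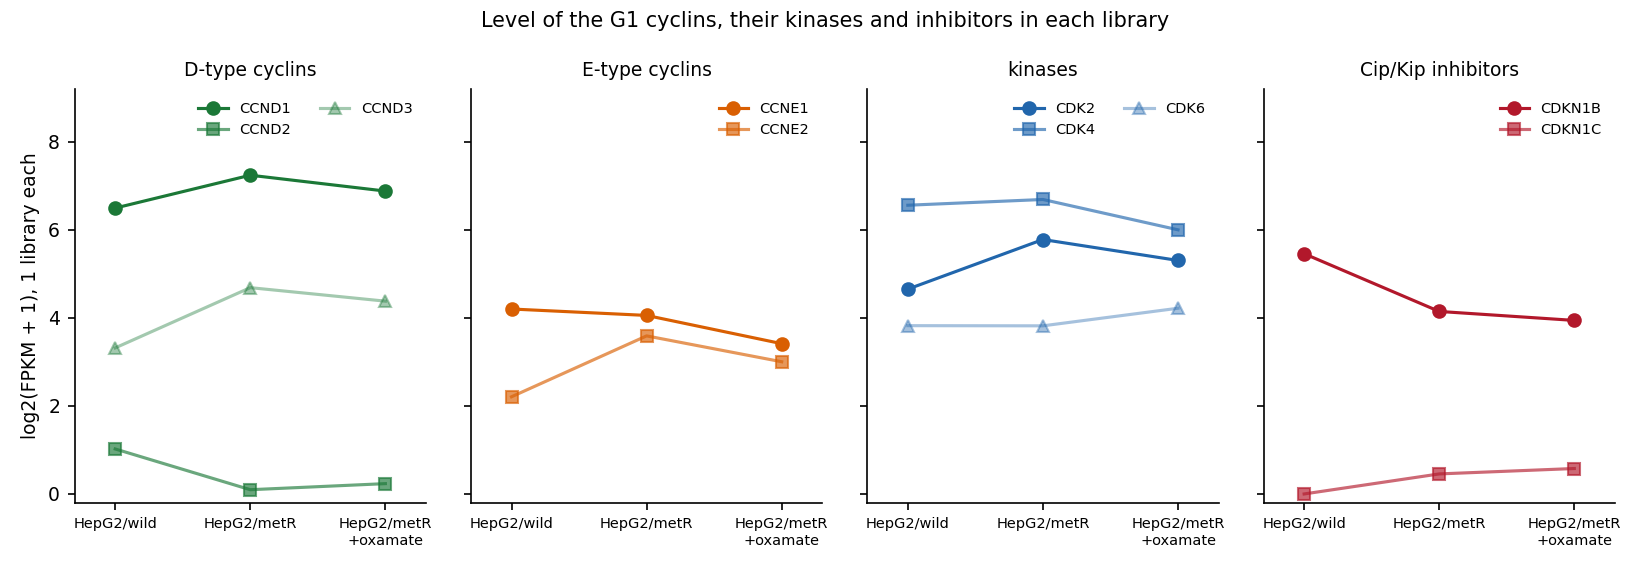
Level of each member in the 3 libraries, as log2(FPKM + 1) on the y axis, with 1 panel per role and 1 point per library, so that no error bar can be drawn; lines only join the points of a gene. CCND1 and CDK4 lay highest in all 3 libraries, and CCND2 and CDKN1C lay lowest.

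D-type cyclins carry growth signals to CDK4 and CDK6. CCND1, the main D-type cyclin of hepatocyte-derived cells, was at 89.2 FPKM in HepG2/wild, 150.3 FPKM in HepG2/metR and 117 FPKM with oxamate. It was lowest in HepG2/wild and highest in HepG2/metR, and its difference of 0.75 between them did not reach 2-fold. Its difference with oxamate was −0.36, short of 1.5-fold. In HepG2/metR it was the most abundant of the 10 members, and its level exceeded that of 95.8% of the genes counted, compared with 92.2% in HepG2/wild.

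CCND3 was at 8.97 FPKM in HepG2/wild, 24.8 FPKM in HepG2/metR and 19.8 FPKM with oxamate. It rose by 1.37 between HepG2/wild and HepG2/metR, a 2.76-fold ratio of FPKM, and moved from the 44.8th to the 74.6th percentile of the genes counted. Its difference with oxamate was −0.31. Both HepG2/metR libraries were thus above the parental one.

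CCND2 was at 1.03 FPKM in HepG2/wild, 0.0692 FPKM in HepG2/metR and 0.177 FPKM with oxamate. The parental library held the highest value and both HepG2/metR libraries lay well below 1 FPKM. The difference of −0.93 on the log2(FPKM + 1) scale corresponds to a 14.9-fold ratio of FPKM, and with a pseudocount of 0.1 in place of 1 the difference was −2.74. At such levels the count of reads behind a value is small and unknown, so the size of this ratio cannot be given an error.

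Because FPKM is per transcript length, the members of a family can be set side by side within a library, and such a share does not depend on how libraries are scaled to each other. CCND1 supplied 89.9% of the summed D-type cyclin FPKM in HepG2/wild, 85.8% in HepG2/metR and 85.4% with oxamate. The share of CCND3 was 9.05%, 14.1% and 14.5% in the same order, and that of CCND2 was 1.04%, 0.0395% and 0.129%. CCND1 was therefore the bulk of the family in each library, and the summed level was 99.2, 175 and 137 FPKM.

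E-type cyclins act after the D-type cyclins and drive entry into S phase with CDK2. CCNE1 was at 17.4 FPKM in HepG2/wild, 15.6 FPKM in HepG2/metR and 9.66 FPKM with oxamate. The first pair of values differed by −0.15, and the value with oxamate was the lowest, falling by 0.64 from HepG2/metR, a 1.62-fold ratio of FPKM. Among the members it went from rank 6 in HepG2/metR to rank 7 with oxamate.

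CCNE2 was at 3.62 FPKM in HepG2/wild, 11.1 FPKM in HepG2/metR and 7.02 FPKM with oxamate. HepG2/metR was the highest library and HepG2/wild the lowest. The gene rose by 1.38, a 3.05-fold ratio of FPKM, and fell by 0.59 with oxamate, a 1.57-fold ratio of FPKM. The first was the largest change of a counted member on the deposited scale, but it was nearly equal to that of CCND3, and both stood at 1.51 under upper-quartile scaling, with CCND3 marginally ahead. The second value lay just past the threshold of 0.58. In the RefSeq gene table CCNE2 overlaps INTS8 and NDUFAF6, and the strand setting of the counting was not given in the sources used here, so reads of these genes may not be fully separated. INTS8, a subunit of the Integrator complex, was at 9.60, 19.7 and 20.5 FPKM in HepG2/wild, HepG2/metR and HepG2/metR+oxamate. NDUFAF6, an assembly factor of mitochondrial complex I, was at 6.56, 4.27 and 4.29 FPKM in that order. INTS8 was thus higher in HepG2/metR than in HepG2/wild, as CCNE2 was, with a difference of 0.97 that came to between 1.03 and 1.11 under other pseudocounts, upper-quartile scaling and the same total. With oxamate neither overlapping gene was lower, as CCNE2 was.

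The make-up of the E-type cyclins differed between the parental and the HepG2/metR libraries. CCNE1 gave 82.8% of their summed FPKM in HepG2/wild and 58.6% in HepG2/metR, while CCNE2 gave 17.2% and 41.4%. With oxamate the shares were 57.9% and 42.1%, within 1 percentage point of those in HepG2/metR, whereas the sum went from 26.7 to 16.7 FPKM. The sum in HepG2/wild was 21.0 FPKM. The lower E-type level with oxamate was thus spread over both genes in nearly the same proportion.

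The promoter of CCNE1 is shown because this cyclin fell with oxamate and its window was dense in GC boxes, the letters GGGCGG or CCGCCC that Sp-family factors bind. The window of RefSeq in GRCh38.p14 runs from 250 bases before to 50 bases after the gene start. The stretch printed is chr19:29811741-29811897 on the plus strand, the bases −250 to −94, and capitals mark its 5 GC boxes. It ends before the first GENCODE 29 transcript start found in the 250 bases upstream of the gene start. Starts further upstream were not searched.
CCNE1: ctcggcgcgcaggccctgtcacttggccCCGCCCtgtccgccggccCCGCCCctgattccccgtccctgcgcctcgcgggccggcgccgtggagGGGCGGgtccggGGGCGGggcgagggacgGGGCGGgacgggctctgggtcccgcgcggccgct

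Of this stretch 83.4% was G or C. The whole CCNE1 window held 7 GC boxes, a number reached by 525 of all 35116 RefSeq windows of the same length. RefSeq windows were found for 5 of the members, with 3 for CCND3, 2 for CDK6 and 1 each for CCNE1, CDK4 and CDKN1B, and 6 of these 8 windows held at least 1 GC box, as did 45.0% of all windows. The E2F letters TTTCCCGC and TTTGGCGC, searched on both strands without a mismatch and with overlapping matches counted, were in 0 of the 8 windows and in 2.27% of all windows. These are matches of letters only, and the GC box and the E box described with CDK4 were chosen after the values had been seen.

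The kinases CDK4 and CDK6 are the partners of the D-type cyclins, and CDK2 is that of the E-type cyclins. CDK2 was at 24.2 FPKM in HepG2/wild, 54.0 FPKM in HepG2/metR and 38.5 FPKM with oxamate. It rose by 1.13 between HepG2/wild and HepG2/metR, a 2.23-fold ratio of FPKM, and its difference with oxamate was −0.48. HepG2/metR held the highest level and HepG2/wild the lowest. From HepG2/wild to HepG2/metR it moved from rank 4 to rank 3 among the members.

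CDK4 was at 93.3 FPKM in HepG2/wild, 102 FPKM in HepG2/metR and 63.1 FPKM with oxamate. The first pair of libraries differed by 0.13. With oxamate the gene fell by 0.69, a 1.62-fold ratio of FPKM and the largest change of any counted member in that contrast, to the lowest of its 3 values. It remained above 90.8% of the genes counted. CDK4 overlaps TSPAN31, a tetraspanin gene, in the RefSeq gene table. TSPAN31 was at 5.60, 20.2 and 21.5 FPKM in HepG2/wild, HepG2/metR and HepG2/metR+oxamate, so that it rose by 1.69 in the first contrast and differed by 0.08 in the second.

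The CDK4 promoter window held 3 E boxes with the letters CACGTG, which read the same on both strands and are bound by MYC with its partner MAX. At least 3 were found in 0.0940% of all windows and at least 1 in 7.26%, and 2 of the 8 windows of members, those of CDK4 and of 1 CDK6 start, held any. The 3 sites are shown on the minus strand of GRCh38.p14 with capitals marking the E box, at chr12:57752512-57752535, chr12:57752492-57752515 and chr12:57752397-57752420, which correspond to the bases −225 to −202, −205 to −182 and −110 to −87 from the start.
CDK4 E box 1: tcaagcggtCACGTGtgatagcaa
CDK4 E box 2: gcaacagatCACGTGgctgccatc
CDK4 E box 3: ggtggcggtCACGTGcccagaacg

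CDK6 was at 13.2 FPKM in HepG2/wild, 13.1 FPKM in HepG2/metR and 17.6 FPKM with oxamate. The parental and HepG2/metR values were almost equal, and the sign of their small difference turned from negative to positive under each of the other 3 scalings. With oxamate the difference was 0.40, short of 1.5-fold, and CDK6 was the only counted member above 0 in that contrast. CDK4 gave 87.6% of the summed CDK4 and CDK6 FPKM in HepG2/wild, 88.6% in HepG2/metR and 78.2% with oxamate. The share of CDK6 was thus 12.4%, 11.4% and 21.8%, and the library with oxamate stood apart from the others. The sums were 106, 115 and 80.7 FPKM.

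The summed D-type cyclin FPKM per summed CDK4 and CDK6 FPKM was 0.932 in HepG2/wild, 1.52 in HepG2/metR and 1.70 with oxamate. The ratio of summed D-type to summed E-type cyclins was 4.72, 6.56 and 8.21 in the same order. Both ratios were lowest in HepG2/wild. The ratio of CDK2 to CDK4 was 0.259 in HepG2/wild, 0.528 in HepG2/metR and 0.611 with oxamate.

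CDKN1B encodes p27, which binds cyclin E with CDK2 and blocks it. It was at 43.0 FPKM in HepG2/wild, 16.7 FPKM in HepG2/metR and 14.4 FPKM with oxamate. It fell by 1.31 between HepG2/wild and HepG2/metR, a 2.57-fold ratio of FPKM, and left the 82.9th percentile of the genes counted for the 64.9th. With oxamate the difference was −0.20. The parental library was the single high value. CDK2 per CDKN1B was 0.563 in HepG2/wild, 3.23 in HepG2/metR and 2.68 with oxamate. The mRNA of the kinase was thus below that of its inhibitor in the first library and above it in the others. Protein was not measured here. CCND1 per CDKN1B was 2.08, 8.996 and 8.13, and CDK4 per CDKN1B was 2.17, 6.12 and 4.39.

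CDKN1C, the gene for p57, is imprinted and is expressed from the maternal chromosome. It was listed at 0 in HepG2/wild and was at 0.371 FPKM in HepG2/metR and 0.493 FPKM with oxamate. All 3 values were under 1 FPKM, and no fold is given against a library at 0. The remaining Cip/Kip gene, CDKN1A, which encodes p21, was at 48.4 FPKM in HepG2/wild, 89.2 FPKM in HepG2/metR and 95.7 FPKM with oxamate. Its differences of 0.87 and 0.10 did not pass the folds, although the first came to 1.02 under upper-quartile scaling. The ratio of CDKN1A to CDKN1B was 1.13 in HepG2/wild, 5.34 in HepG2/metR and 6.66 with oxamate, while the 3 Cip/Kip genes summed to 91.4, 106 and 111 FPKM. The level of CDKN1B was thus the one that fell within this family. CDKN1A held the larger part of the sum in every library, by a wider margin over CDKN1B in the HepG2/metR libraries.

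**Figure D2:**
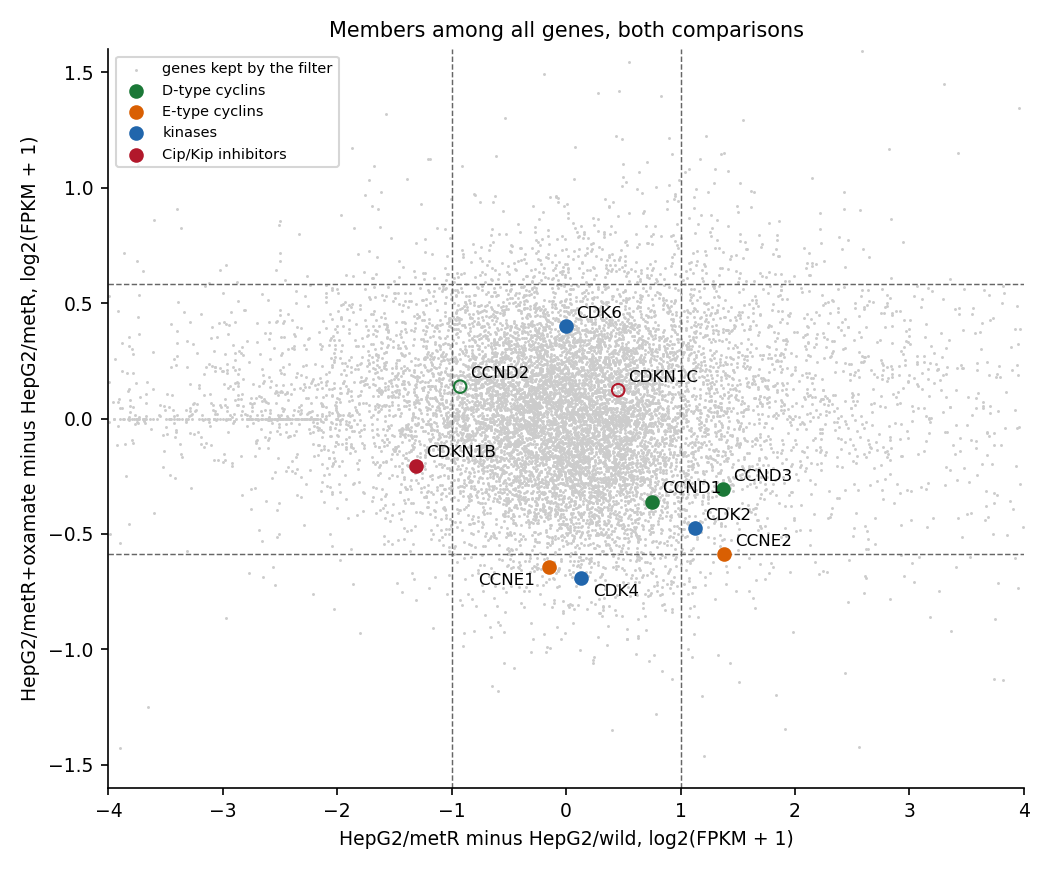
Difference between HepG2/metR and HepG2/wild (x axis) against that between HepG2/metR+oxamate and HepG2/metR (y axis), both in log2(FPKM + 1), for the 12210 genes counted (grey) and the members (coloured by role, open circles for the 2 members not counted), with 576 genes outside the plotted range; dashed lines mark 2-fold and 1.5-fold. The axes share the HepG2/metR library, so no relation is to be read from the cloud, and CCNE2 lay past both folds.

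With oxamate the 3 falls depended on the scaling of the libraries. When each library was scaled to the same total FPKM, CCNE1 stood at −0.48, CCNE2 at −0.43 and CDK4 at −0.52, and 0 of 8 members passed 1.5-fold. That scaling moved the median of all genes to 0.17, and relative to it the differences were −0.65, −0.60 and −0.68. Under median-of-ratios and upper-quartile scaling CCNE1 and CDK4 stayed past the fold, while CCNE2 was at −0.58 and −0.55 and missed it. The same-total scaling also turned the background from 525 genes higher and 466 lower to 1187 higher and 192 lower. Of the 8 members, 7 kept a negative difference with oxamate under each scaling, with CDKN1B close to 0 at −0.04 under the same total, and CDK6 kept a positive one. The 4 calls between HepG2/wild and HepG2/metR held under all 3 other scalings, of which upper-quartile scaling moved the median of all genes most, to 0.15.

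Other genes were taken from 12 lists with 69 genes, of which 64 were counted. All but 1 of the lists hold genes of the pathway. The exception holds genes around CDKN1C on the chromosome, with 6 counted. Of these, 1 rose and 1 fell past 2-fold in HepG2/metR, and 0 passed 1.5-fold with oxamate. The counts that follow include them. Together 8 of the 64 rose past 2-fold in HepG2/metR and 6 fell, with a median of 0.03. With oxamate 20 of 64 fell past 1.5-fold and 0 rose, with a median of −0.28. The shares of all genes given above, 16.6% and 17.6% for the first contrast and 3.82% and 4.3% for the second, are the background for these counts.

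Of the 4 INK4 inhibitors, 2 fell in HepG2/metR. CDKN2A was at 5.76 FPKM and CDKN2B at 3.90 FPKM in HepG2/wild, and both were listed at 0 in the HepG2/metR libraries. Both were counted only through their HepG2/wild value, so being counted and being lower were tied. With a minimum mean of 5 FPKM neither was counted. CDKN2C was at 13.5, 13.3 and 9.72 FPKM and CDKN2D at 3.99, 7.72 and 6.79 FPKM in HepG2/wild, HepG2/metR and HepG2/metR+oxamate, without passing a fold. The FOXO factors, which act on the CDKN1B gene, had 2 of 3 members lower in HepG2/metR, with differences of −2.28 for FOXO1 and −1.57 for FOXO4. FOXO1 was at 6.23, 0.492 and 0.588 FPKM and FOXO4 at 6.55, 1.54 and 2.11 FPKM. FOXO1 too was counted only through HepG2/wild, and neither FOXO1 nor FOXO4 was counted at a minimum mean of 5 FPKM. With oxamate 0 of the 3 passed the fold.

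Among the transcription factors that act on the CCND1 gene, 3 of 7 counted rose in HepG2/metR and 3 fell with oxamate. JUN, an AP-1 subunit, was at 15.7, 48.3 and 45.2 FPKM in the order HepG2/wild, HepG2/metR and oxamate, and rose by 1.56. FOSL1, its Fos-family partner, was at 11.5, 192 and 115 FPKM, rising by 3.95 and then falling by 0.74. ETS1, an ETS-family factor, was at 0.446, 132 and 107 FPKM, and rose by 6.52. These 3 factors were named because they rose from HepG2/wild, so their low values there are no separate result. Of the 7 counted, 4 lay below 0 in that contrast, among them CTNNB1 at −0.40 and STAT3 at −0.22, and the list's median was −0.09. MYC was at 79.3, 74.7 and 46.7 FPKM and fell by 0.67 with oxamate, and EGR1, an immediate-early factor, was at 6.28, 5.50 and 0.755 FPKM and fell by 1.89. The falls of MYC and FOSL1 did not reach 1.5-fold when libraries were scaled to the same total.

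The pocket proteins that the kinases phosphorylate had 0 of 3 genes past a fold in either contrast. RB1 was at 15.6, 19.5 and 21.4 FPKM in HepG2/wild, HepG2/metR and HepG2/metR+oxamate. RBL1, which encodes p107, was at 9.79, 6.77 and 4.24 FPKM, with differences of −0.47 and −0.57, the second just short of 1.5-fold. With pseudocounts of 0.1 and 0.01 the second came to −0.66 and −0.67 and passed it, so that 1 of the 3 pocket protein genes was then lower with oxamate. RB1 was highest with oxamate and RBL1 was lowest there.

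Of the 10 E2F and DP factors, 3 rose and 1 fell in HepG2/metR. The repressors E2F7 and E2F8 rose by 2.05 and 1.11, and TFDP1, the DP partner, which went from 47.2 to 95.5 FPKM, lay just past 2-fold. E2F6, another repressor, fell by 1.13, from 19.2 to 8.21 FPKM, and missed 2-fold at −0.99 under upper-quartile scaling. With oxamate E2F1 and E2F2, both activators, fell by 0.67 and 0.64. E2F1 was at 28.4, 29.1 and 17.9 FPKM and E2F2 at 3.51, 2.17 and 1.04 FPKM in the 3 libraries. Neither reached 1.5-fold when libraries were scaled to the same total.

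The S-phase genes downstream of E2F encode parts of the replication machinery and enzymes of nucleotide supply. Between HepG2/wild and HepG2/metR 1 of 12 rose, MCM6, a subunit of the replicative helicase, at 17.6 and 39.5 FPKM, and the list's median was 0.00. With oxamate 11 of 12 fell, all except CDT1 at −0.26, and the median was −0.93. RRM2, a subunit of ribonucleotide reductase, was at 113, 149.6 and 58.0 FPKM in the 3 libraries and fell by 1.35 with oxamate, and PCNA, the replication clamp, was at 374, 224 and 136 FPKM and fell by 0.72. When libraries were scaled to the same total 10 of the 12 still passed the fold, with PCNA at −0.55 no longer past it, and the median was −0.76. The members themselves had 3 of 8 past the fold in that contrast and a median of −0.42.

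The CDC25 phosphatases, which remove inhibitory phosphates from the kinases, had 2 of 3 genes lower with oxamate, with differences of −0.61 for CDC25A and −0.65 for CDC25C. The ubiquitin ligase parts that act on G1 cyclins or p27 had 2 of 8 lower with oxamate. CKS1B, the cofactor for recognition of p27, was at 102, 175 and 85.3 FPKM in HepG2/wild, HepG2/metR and HepG2/metR+oxamate and fell by 1.03, and RBX1, the RING subunit, was at 85.5, 60.4 and 39.3 FPKM and fell by 0.61. Scaling to the same total left CKS1B past 1.5-fold and the other 3 of these genes short of it, as did upper-quartile scaling for CDC25A and RBX1. SKP2, the F-box protein that recognises p27, was at 27.8, 17.7 and 17.3 FPKM and passed no fold. The CDK-activating kinase had 0 of 3 genes past a fold in either contrast, and so did the 4 later cyclin and kinase genes counted, whose median was 0.74 between HepG2/wild and HepG2/metR and −0.51 with oxamate. CCNB1, a mitotic cyclin of that list, was at 91.1, 179 and 124 FPKM, and its difference between HepG2/wild and HepG2/metR was 0.96, which came to 1.11 under upper-quartile scaling.

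The nearest counted genes on the chromosome were compared with the members past 2-fold in HepG2/metR, using the order of genes in RefSeq. Beside CCND3, the neighbours BYSL, MED20, TAF8 and C6orf132 differed by −0.10 to 0.38, so none passed the fold. Beside CCNE2, INTS8 and DPY19L4 differed by 0.97 and 0.77, and NDUFAF6 and TP53INP1 by −0.52 and −0.61. Beside CDK2, DGKA and MMP19 rose by 2.13 and 1.68, while RAB5B and SUOX differed by 0.32 and −0.59. MMP19, at 0.0928 FPKM in HepG2/wild, was counted only through the HepG2/metR libraries, so its rise was tied to being counted. Beside CDKN1B, DUSP16, a phosphatase of MAP kinases, fell by 2.36, from 20.9 to 3.27 FPKM, DDX47 rose by 1.25, from 40.1 to 96.9 FPKM, and CREBL2 differed by 0.20. The fourth neighbour, RPL13AP20, rose by 3.42, but it is a processed copy of a ribosomal protein gene whose reads cannot be assigned with certainty. RPL13AP20 too was counted only through the HepG2/metR libraries. With oxamate, TP53INP1 rose by 1.14 and RPL13AP20 by 1.15. Genes next to a member thus moved in either direction.

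For the member with the largest change in each contrast on the deposited scale, the genes with the most similar pattern were found by the Euclidean distance over the 2 log2 differences, which rest on 3 libraries. Nearest to CCNE2 were AP2S1 at a distance of 0.0165, RACGAP1 at 0.0234 and KIF18B at 0.0238, and 11 genes lay within 0.1. Nearest to CDK4 were RNF181 at 0.0330, EZH2 at 0.0466 and BZW1 at 0.0470, and 25 genes lay within 0.1. With so few libraries such closeness describes these values alone.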

How the data were processed

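Expression was measured by RNA-seq in 3 HepG2 libraries, 1 per condition. The values are log2 values deposited by the authors, 1 per gene and library, and the back-transformed values carried at most 6 significant digits for 99.9% of values above 1, which identified the scale as log2(FPKM + 1). The submitters' processing notes name FastQC 0.11.5, STAR 2.5.1b, Cufflinks 2.2.1 and hg19. The gene annotation and strand setting are not given in the sources used here. Differences of the log2 values were taken for genes with a mean of at least 1 FPKM (12210 of 25270 rows, 28 of the latter with date-like symbols and not used by name). Members and lists were chosen with earlier results of these data known. Named are all members, list genes past the fold, the nearest 2 counted genes on each side of a member past 2-fold and the 3 genes closest in pattern to the member with the largest change per contrast. Other genes named were chosen after their values were seen. Promoter windows and gene order are from RefSeq GRCh38.p14, and transcript starts from GENCODE 29. Alternatives were other pseudocounts, filters, scalings and folds. Calculations used Python 3.11.15, numpy 2.4.6 and pandas 2.3.3 and were tested on simulated data.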

Additional observations from a re-analysis of the deposited data

How the results depend on the processing

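Over 8 alternatives, 119 single differences of the 8 counted members kept their side of the fold, 8 no longer passed it, 1 newly passed it and 0 called ones changed direction. The members past the fold with oxamate, 3 in number, came to 0 when libraries were scaled to the same total and to 0 when the thresholds of the contrasts were exchanged. Scaling to the same total changed the list genes lower with oxamate from 20 to 12 and those higher from 0 to 2, and the whole table from 525 higher and 466 lower to 1187 and 192. With the thresholds exchanged, 16 list genes were higher and 12 lower in HepG2/metR, against 8 and 6, and 6 were lower with oxamate. In the whole table the exchange gave 3262 higher and 3301 lower in HepG2/metR and 66 and 64 with oxamate. A minimum mean of 5 FPKM left 2 list genes lower in HepG2/metR, and 1249 higher and 1428 lower of all genes there, with 271 higher and 403 lower with oxamate. Pseudocounts of 0.1 and 0.01 gave 1018 and 1164 genes higher and 607 and 685 lower with oxamate; both gave 22 list genes lower, with RBL1 and E2F8 added, and the smaller one gave 1 higher. They also moved the members not counted, CCND2 to −2.74 and −3.72 in HepG2/metR and to 0.71 and 1.24 with oxamate, and CDKN1C to 2.24 and 5.25 in HepG2/metR, where its parental value is listed at 0. No replicate could be left out, and depth limits CCND2 and CDKN1C most, since the reads behind values under 1 FPKM are unknown. No paired analysis was possible because each condition had 1 library.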

Other observations

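CDKN1C lies in an imprinted region, of which 9 genes were listed and 6 counted. Between HepG2/wild and HepG2/metR 1 of the 6 rose and 1 fell past 2-fold. Of all genes, 16.6% rose and 17.6% fell, so these counts were near the background. CD81, a tetraspanin gene, was at 0.383 FPKM in HepG2/wild, 141 FPKM in HepG2/metR and 99.9 FPKM with oxamate, and rose by 6.68. IGF2, which encodes a fetal growth factor, was at 345 FPKM in HepG2/wild, 1.33 FPKM in HepG2/metR and 2.02 FPKM with oxamate, and fell by 7.21. The parental library was the lowest for the first gene and the highest for the second. CD81 was counted only through its values in the HepG2/metR libraries, so being counted and being higher there were tied. With oxamate 0 of the 6 passed 1.5-fold, whereas 4.3% of all genes rose and 3.82% fell. The median of the list was 0.05 in the first contrast and 0.02 in the second.

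MYEOV, the nearest counted gene before CCND1, was chosen after its values were seen. It was at 0.788 FPKM in HepG2/wild, 83.7 FPKM in HepG2/metR and 48.8 FPKM with oxamate, and its differences were 5.57 and −0.77. The gene on the other side, FADD, an adaptor of death receptors, was at 16.1, 20.5 and 18.7 FPKM, and CCND1 itself differed by 0.75 and −0.36. MYEOV was counted only through the HepG2/metR libraries, so its low parental value is no separate result. MYEOV and CCND1 were both lowest in the parental library and highest in HepG2/metR, as was FADD. The next counted gene on either side did not share this order. TPCN2, beyond MYEOV, was lowest with oxamate, and PPFIA1, beyond FADD, was highest with oxamate.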
